A study of Drosophila melanogaster with 6 samples.

Results

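Heads of wild type fruit flies, Drosophila melanogaster, were collected at ZT16, the early night of a light-dark cycle in which lights come on at ZT0, and their messenger RNA was read on Affymetrix DrosGenome1 arrays. The 3 wild type arrays, of 6 in the series, were taken by their labels, and the order of gene signals within them is described here. The other 3 arrays, of flies with a clock-cell transgene, were not compared. The flies were 2 to 4 days old and had spent 3 days in light-dark cycles. Wild type 1 and wild type 3 are labelled as strain CS, and no strain is labelled for wild type 2. No label tells males from females or says whether replicates came from separate collections, so the spread between arrays may be technical.

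An adult fly head is mostly compound eye and brain, wrapped in cuticle, muscle, glia and a sheet of fat body, with the antennae and mouthparts attached. Photoreceptors turn light into current through rhodopsin, a G protein, phospholipase C and the TRP channels, and arrestins switch rhodopsin off. The fat body of the head makes lipoproteins, storage proteins, defence peptides and, in females, yolk proteins. Clock cells, which include photoreceptors and glia as well as brain neurons, run a loop in which CLK and CYC switch on per and tim, whose proteins later switch CLK and CYC off.

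Each gene was placed by its brightest probe set that is assigned to exactly 1 gene, which gave 10844 genes. Its level is the mean over the 3 arrays of log2(intensity + 16) after quantile normalization, and every ± is the SD with n = 3. A gene counts as above the controls on an array when it is brighter there than all 23 probe sets that serve as negative controls. On all 3 arrays 4611 genes, or 42.5%, were above the controls, while 5273 were above them on none. A signal depends on the probes of a probe set as well as on the RNA, so the order is one of probe set signals and only roughly one of transcript abundance. In whole heads, fewer cells of a type and less RNA per cell cannot be told apart. The scale of the deposited intensities is unsettled, which would stretch or shrink distances between levels but leaves their order. With 1 group there is no comparison between groups and no test. All 8 markers of head tissues, Yp1, Arr1, Arr2, trp, Obp83b, apolpp, tim and elav, were above the controls on all 3 arrays.

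The arrays shared most of the order and differed in 2 respects that touch results below. Spearman's rho between arrays, across all genes, was 0.972 to 0.981, which is a description because genes are not independent, and any pair of arrays shared 89 to 91 of its 100 brightest genes. The median intensity was between 26.1 and 30.6. For the eIF-4a controls the log2 difference of the 3' end over the 5' end was 9.49 on wild type 2, against 3.06 on wild type 1 and 3.59 on wild type 3. The corresponding GAPDH values were 7.08, 4.16 and 4.49, so wild type 2 had the largest difference for both. For actin the log2 differences were 2.42, 2.22 and 2.03 on wild type 1, 2 and 3. The 5' end of actin read 5.03, 5.15 and 5.08, below the highest negative control on every array. The actin difference could therefore not show a loss of 5' signal. For 18S ribosomal RNA, which is no messenger RNA, the differences were 3.21, 3.76 and 3.89 and did not set wild type 2 apart. The control for the middle of 18S ribosomal RNA stood at 16.89 on wild type 3, against 12.60 and 11.90 on wild type 1 and wild type 2. Leaving out each array in turn kept 97 or 98 of the 100 brightest genes.

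The order began with the yolk protein genes Yp1, Yp3 and Yp2, which in the adult are known for female fat body and ovary. Yp1, the brightest gene, stood at 20.62 ± 0.59, with 21.27, 20.48 and 20.12 on wild type 1, 2 and 3. Yp3 followed at 20.04 ± 0.27, and Yp2 was the fourth gene at 19.08 ± 1.01. Yp2 read 20.12, 19.01 and 18.11 on the 3 arrays. All 3 genes were highest on wild type 1 and lowest on wild type 3, and Yp2 had the widest spread of the 3. Among the other genes of sex, Sxl, the female switch gene, stood at 6.76 ± 0.19 and tra at 6.38 ± 0.07. The sex-determination factor dsx was above the controls on no array.

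Between Yp3 and Yp2 stood Nplp2, a neuropeptide-like precursor, at 19.23. Its SD is 0.00 because it held the same rank among all probe sets on every array and quantile normalization gives equal ranks equal values. The deposited intensities of Nplp2 were 849788, 562461 and 486343, an SD of 0.42 on the log2 scale. EbpIII, named for a protein of the ejaculatory bulb, read 18.39, 18.63 and 18.27, and CG6503, known by number only, read 18.63, 18.27 and 18.05. The remaining genes of the first 10 were Arr2, CG17108, Obp19d and Obp99b. They were a mixture of eye, olfactory or taste organ, and fat body genes with 1 known only by number.

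**Figure D1:**
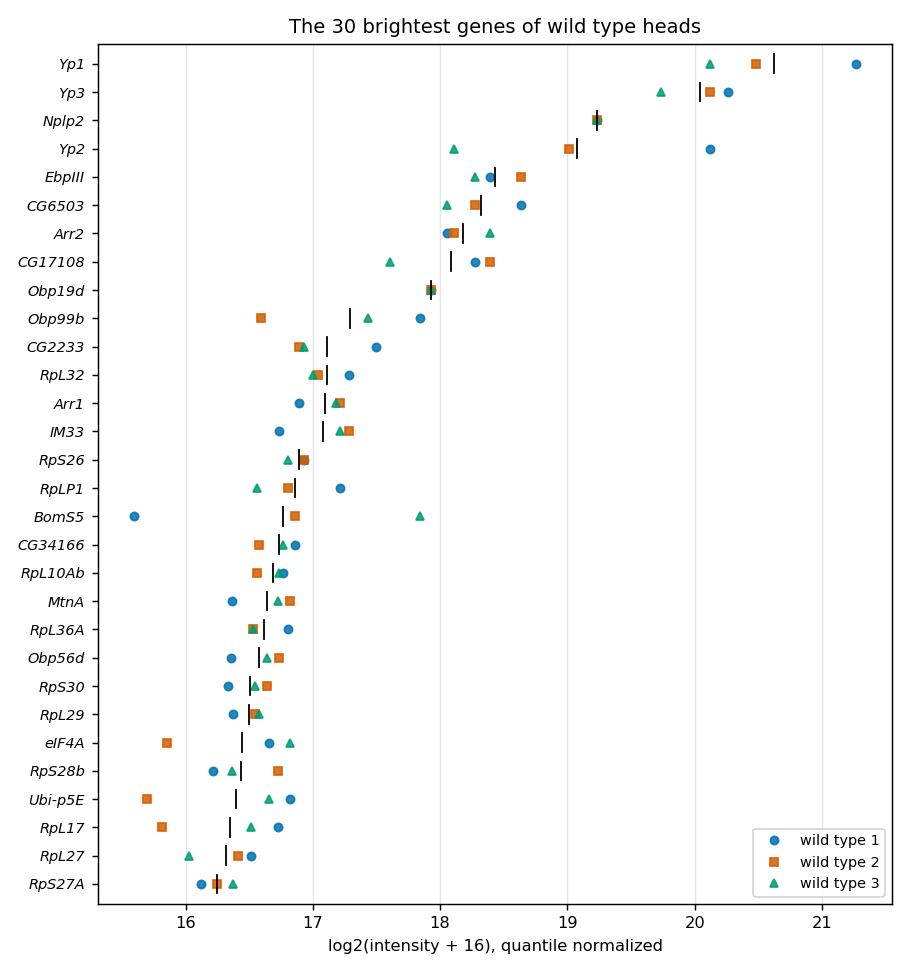
The 30 brightest genes of wild type heads in order, with log2(intensity + 16) after quantile normalization on the horizontal axis. Symbols are the 3 arrays and the vertical bar is their mean. Neighbouring genes mostly overlap, and some genes, such as Yp1, Yp2 and BomS5, spread over more than 1 log2 unit.

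Most neighbours in this order were not separated by their spread. Of the 30 pairs of neighbours among the 31 brightest genes, 2 had ranges that did not overlap, namely Yp3 above Nplp2 and Obp19d above Obp99b, and 5 had the same order on all 3 arrays. The median step between neighbours was 0.060 log2 units, against a median SD of 0.249 over the 30 genes. Of the 30 genes, 23 were among the 30 brightest on every array, and of the 100 brightest, 86 were. The last gene inside the 30, the ribosomal protein gene RpS27A, stood at 16.25 ± 0.13, and the first outside, sesB, the mitochondrial ADP/ATP carrier, at 16.18.

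Ribosomal protein genes supplied 11 of the 30 brightest genes and 25 of the 100 brightest. Of the 100, 6 were genes of odorant-binding proteins, 5 were subunits of the respiratory chain and ATP synthase, 5 were fat body genes and 4 were photoreceptor genes, where a gene can belong to several groups. Another 42 were in none of the gene lists used here, and 19 were known by a CG number alone. Such numbered genes made up 41.4% of all genes ranked and 32.9% of those above the controls on all 3 arrays. The levels fell steeply from there. The last of the 108 genes above percentile 99 of the order stood at 13.65, the last of the 1084 genes above percentile 90 at 8.27, and the median gene at 5.54.

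**Figure D2:**
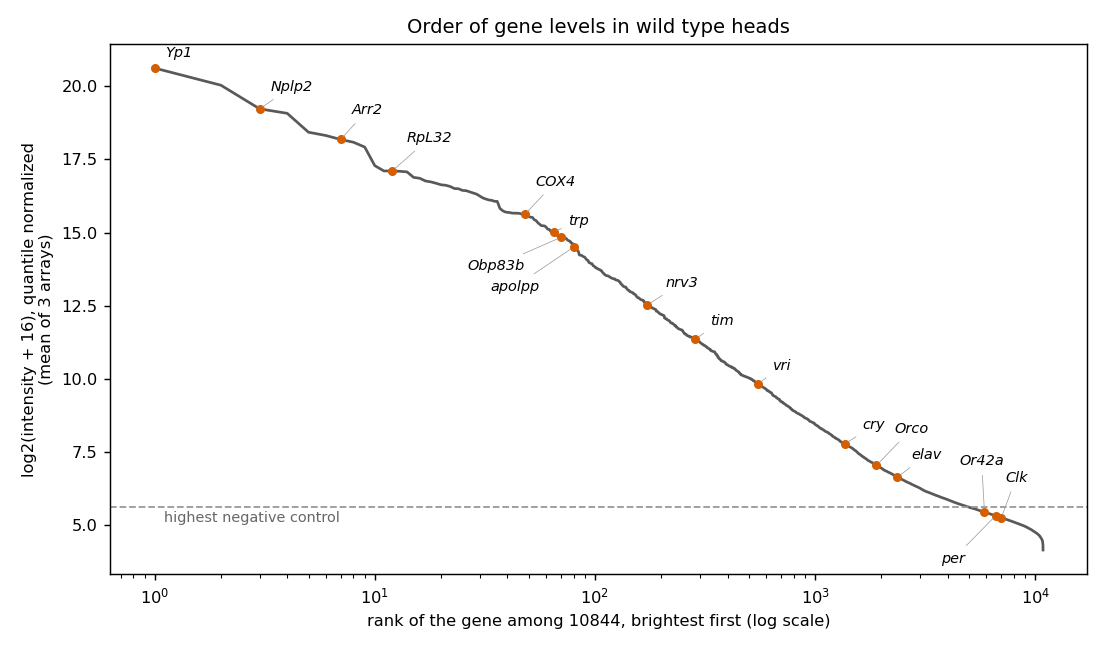
Level of each of the 10844 genes, as the mean of log2(intensity + 16) after quantile normalization over 3 arrays, against its rank on a log scale. Marked genes run from Yp1 at 20.62 through tim at 11.36 and elav at 6.65 to per and Clk, which lie under the dashed line of the highest negative control.

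Genes of the photoreceptors were bright as a group. Of 29 measured photoreceptor genes 26 were above the controls on all 3 arrays, or 89.7% against 42.5% of all genes, and 14 stood above percentile 90 of the order, where 100 is the brightest. Their median lay at percentile 89.2. Arr2 and Arr1, the arrestins of the eye, were the brightest. Arr2 read 18.05, 18.11 and 18.39, and Arr1 read 16.89, 17.21 and 17.18. The ranges of these genes did not overlap, and Arr2 was above Arr1 on every array.

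The light-activated channels came next. The channel gene trp stood at 15.02 ± 0.45, with 14.67, 14.86 and 15.53, and trpl at 14.65 ± 0.30, with 14.31, 14.89 and 14.74, so the ranges of the channel genes overlapped. Among other parts of the cascade, Gbeta76C, the G protein beta subunit, stood at 12.51 ± 0.51, the scaffold gene inaD at 10.43 ± 0.29, and inaC, the eye protein kinase C, at 8.11. The alpha subunit gene Galphaq was dimmer at 6.51 and the diacylglycerol kinase gene rdgA stood at 7.43. The dimmest photoreceptor gene above the controls on all 3 arrays was rdgB, the phosphatidylinositol transfer protein, at 5.75. Those above on no array were prom, ninaG and Trpgamma. The main rhodopsin gene ninaE has no probe set with 1 listed gene and was not analysed here. The same holds for the rhodopsin genes Rh3, Rh4, Rh5 and Rh6, the phospholipase C gene norpA, and ninaA, ninaC, ninaD and inaF-B. The list is therefore not the whole cascade.

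Cells around the photoreceptors gave a similar picture with lower levels. Of 16 genes of pigment cells and the lens, 12 were above the controls on all 3 arrays and 7 were above percentile 90. Pdh, a retinoid dehydrogenase of the retinal pigment cells, led with 14.64, 15.52 and 15.53, and rdhB, which also acts on retinoids, followed at 11.73 ± 0.40. The scavenger receptor gene santa-maria, which takes up carotenoids, stood at 10.03 ± 0.60. It is counted in the photoreceptor list as well, so it does not tell these cells apart. The classical eye colour genes were spread out. Pu stood at 9.27, cl at 8.92, se at 8.77, pr at 7.81, ry at 6.85 and bw at 6.61, with g between these, whereas p was above the controls on 1 array and cd, cn and st on none.

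Odorant-binding proteins were bright and odorant receptors were not. Odorant-binding proteins are small secreted proteins of the fluid around sensory neurons, whereas each receptor is made in a small set of those neurons. Of 36 Obp genes ranked, 22 were above the controls on all 3 arrays, 14 were above percentile 90, 7 were above percentile 99 and 14 were above on no array. Of 52 odorant receptor genes, 1 was above the controls on all 3 arrays, and of 28 gustatory receptor genes also 1. These were Or92a at 5.74 ± 0.02 and Gr59b at 5.76 ± 0.08, both next to the control level, which was 5.58 to 5.62 on the 3 arrays. The shared coreceptor Orco, made in most olfactory neurons, stood above them at 7.05.

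Obp19d read 17.93 on each array after normalization and 247018, 243861 and 256093 in deposited intensity, an SD of 0.037 on the log2 scale, the lowest among the 30 brightest genes. Obp56d stood at 16.58 ± 0.20. Obp83b, a binding protein of antennal hairs, read 14.55, 15.27 and 14.69. The binding protein gene lush, known for the pheromone response, stood at 7.55 ± 0.01, and the chemosensory protein gene a10 at 12.90 ± 0.28. The genes of the olfactory and taste organ list above the controls on all 3 arrays ran from Obp19d down to Obp19b at 5.96. Obp44a, which is listed here with the glia, stood at 15.62 ± 0.08.

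The medians of the fat body list and the olfactory and taste organ list, at percentiles 96.0 and 95.4, were the highest of the head tissues, and their order differed between arrays. Of 23 fat body genes 18 were above the controls on all 3 arrays and 14 were above percentile 90. Obp99b, an odorant-binding protein gene also known from male fat body, read 17.84, 16.59 and 17.43. The lipoprotein gene apolpp stood at 14.50 ± 0.31, with 14.85, 14.26 and 14.40, although a second probe set of apolpp read 10.16. Pepck1, an enzyme of glucose synthesis, stood at 14.17 ± 0.21, and Tsf1, the iron carrier transferrin, at 13.98 ± 0.18. The larval storage protein gene Lsp2 differed between arrays, with 16.18 on wild type 1 against 13.96 and 13.31. Wild type 1 was also the highest for Tps1, the trehalose synthase, at 14.41 against 13.03 and 12.69, and for Obp99a at 13.82 against 12.16 and 11.78. The larval fat body genes Fbp1 and Fbp2 were above the controls on no array.

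Defence peptides of the fat body and blood were uneven. BomS5, a short Bomanin peptide gene, read 15.59, 16.86 and 17.84, a range of over 2 log2 units with wild type 3 the highest. Drsl5, a drosomycin-like gene, stood at 15.76 ± 0.41 and Listericin at 13.50 ± 0.26. Drosomycin itself, Drs, was much dimmer at 8.54 ± 0.48, and AttD, CecB and BomS4 were above the controls on no array. MtnA, a metal-binding metallothionein, was the gene of rank 20 in the whole order.

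The neuron genes measured stood lower as a list than those of photoreceptors, of olfactory and taste organs and of fat body, on each of the 3 arrays. Some names of the neuron list, such as Syt1, Syx1A, Snap25, cpx and Atpalpha, have no ranked gene. The other lists lack names too, so the comparison covers only the genes that could be ranked. Of 31 neuron genes, 20 were above the controls on all 3 arrays, 9 were above percentile 90 and none above percentile 99. Their median percentile was 65.7 to 72.8 on the 3 arrays, against 87.8 to 90.8 for photoreceptor genes. The brightest was nrv3, a sodium pump subunit of the nervous system, with 12.30, 12.69 and 12.61. Vmat, which loads monoamines into vesicles, followed at 10.09 ± 0.40, and Ddc, which makes dopamine and serotonin, at 9.58 ± 0.48. A second probe set of Vmat read 6.27. The pan-neuronal RNA-binding protein gene elav stood at 6.65 ± 0.27, so this defining marker was measured but not bright. The synaptic vesicle gene nSyb read 8.31 ± 0.41 and ChAT, which makes acetylcholine, 7.66 ± 0.56. The transporter genes VGlut, VGAT, DAT and SerT and the sodium channel gene para were above the controls on no array, which says that these probe sets did not rise above the background and not that the transcripts were absent.

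Of 27 neuropeptide genes 18 were above the controls on all 3 arrays. After Nplp2 came Nplp3 at 15.65 ± 0.38 and Ms, myosuppressin, at 10.68 ± 0.60. Akh, the adipokinetic hormone of the corpora cardiaca, read 9.31, 10.31 and 11.52, which spans 2 log2 units. The insulin-like peptide gene Ilp2, made in a few brain cells, stood at 9.97 ± 0.29, above percentile 90. Pdf, the peptide of the clock neurons, stood at 6.45. Eh, CCAP, Mip, ETH, FMRFa and Lk were above the controls on no array.

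The glia list had its median at percentile 81.5, which is the place of Hdc at 6.95 ± 0.41. Hdc and t in this list are known from photoreceptors, so the median does not describe glia alone. Gs2, the glutamine synthetase of glia, read 13.47, 14.22 and 12.94, the glutamate transporter relative Eaat2 10.97 ± 0.76, and alrm, an astrocyte gene, 9.41 ± 0.32. The gene repo, the defining transcription factor of glia, was above the controls on 1 array. Muscle genes were led by Argk1, arginine kinase, at 14.81 ± 0.16, and Mlc2, a myosin light chain, at 13.75 ± 0.26, although a second probe set of Argk1 read 6.47. Hemocyte genes were led by the collagen genes Col4a1 at 9.53 ± 0.35 and vkg at 9.15 ± 0.20. The hemocyte marker Hml stood at 7.09 ± 0.33.

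Of 94 cuticle genes, 17 were above the controls on all 3 arrays and 2 were above percentile 90, Cpr72Ec at 11.98 ± 0.62 and Cpr67B at 8.42 ± 0.06. Transcription factors of eye and brain had their median at percentile 56.3, close to the middle of all genes. Of 18 such genes 9 were above the controls on all 3 arrays, a share above the 42.5% of all genes, none was above percentile 90, and the brightest was pros at 8.13 ± 0.14. The eye master gene ey was above the controls on no array.

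**Figure D3:**
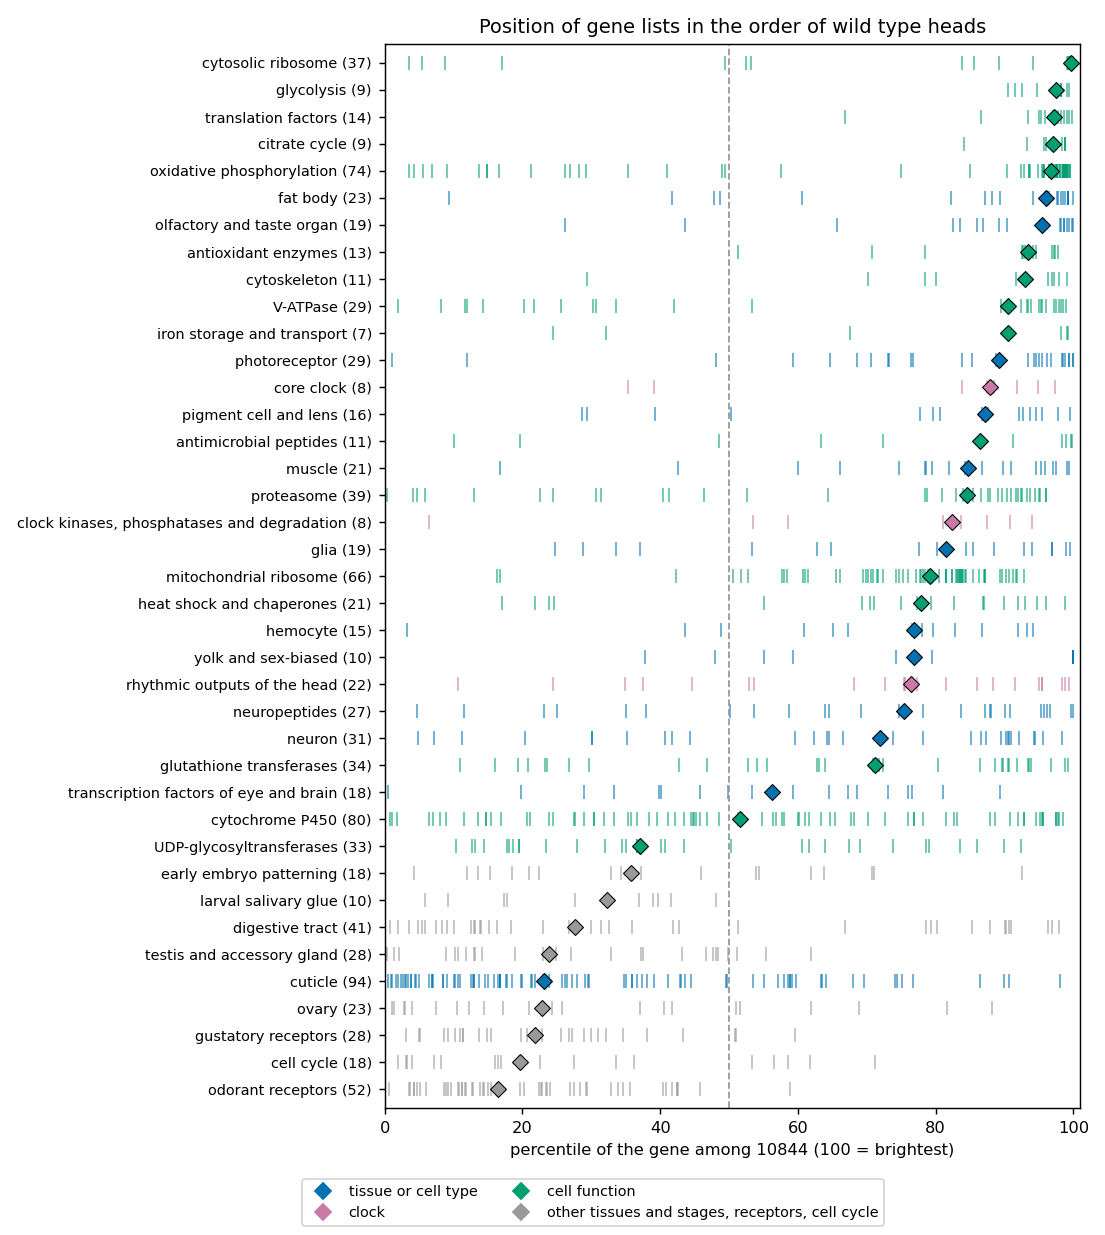
Percentile of each gene in the order of 10844 genes, 1 row per gene list with its number of measured genes in parentheses. Ticks are genes, diamonds are medians and the dashed line is the median of all genes. The medians run from 99.6 for the cytosolic ribosome to 16.5 for the odorant receptors.

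Most genes of the salivary gland, testis, accessory gland and ovary were not above the controls. Digestive genes, some of which were bright, are described with the spread between arrays. None of 10 glue genes of the larval salivary gland was above the controls on any array. Of 28 testis and accessory gland genes 1 was above them on all 3 arrays, the seminal fluid gene Acp26Aa at 5.83 ± 0.18, and of 23 ovary genes 4 were, led by stau at 7.91 ± 0.76. Eggshell genes were dim too: Vm34Ca stood at 6.08 ± 0.07, and Cp36 and Cp15 were above the controls on no array. Yolk protein genes thus stood at the top of the order while eggshell genes stood near its floor. Of 18 cell cycle genes 3 were above the controls on all 3 arrays, with dup, a replication licensing factor, the brightest at 6.19 ± 0.13. Of 18 genes of early embryo patterning 4 were, led by hry at 8.88 ± 0.17.

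Among functions shared by all cells, protein synthesis and energy metabolism led. The cytosolic ribosome had its median at percentile 99.6, with 27 of 37 genes above percentile 90 and 26 above percentile 99. RpL32 read 17.29, 17.04 and 17.00, RpS26 read 16.93, 16.93 and 16.80, and RpLP1 stood at 16.86 ± 0.33. Translation factors had 12 of 14 genes above percentile 90, led by eIF4A, the helicase of translation initiation, at 16.44 ± 0.52. It was lowest on wild type 2, with 15.86 against 16.66 and 16.82, whereas the 3' control probe set of this gene was highest there, with 16.18 against 15.73 and 15.71. The mitochondrial ribosome was different: 59 of its 66 genes were above the controls on all 3 arrays but 6 were above percentile 90, and the brightest, mRpS7, stood at 8.97 ± 0.14. The lists overlapped. RpLP0-like, the dimmest gene of the cytosolic ribosome list above the controls on all 3 arrays, stood at 7.20, below mRpS7. Of the 37 genes of that list, 5 were above the controls on no array.

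All 9 glycolysis genes were above percentile 90, from aldolase, Ald1, at 14.82 ± 0.54 to hexokinase, Hex-A, at 8.38 ± 0.51. Of 9 genes in the citrate cycle list 8 were. Its brightest gene was Mdh1, the cytosolic malate dehydrogenase, at 13.32 ± 0.46, followed by ScsbetaA at 13.31 ± 0.72. The mitochondrial form Mdh2 and the listed names kdn, SdhA and Fum1 have no ranked gene. Of 74 genes of oxidative phosphorylation 53 were above percentile 90, with COX4, a subunit of cytochrome c oxidase, the brightest at 15.62 ± 0.27, followed by cype at 15.44 ± 0.25. Antioxidant enzymes, which take up reactive oxygen, had 10 of 13 genes above percentile 90, led by Gtpx at 11.68 ± 0.37 and catalase, Cat, at 11.38 ± 0.19. Structural and degradation genes followed. Of 11 cytoskeleton genes 7 stood above percentile 90, led by 14-3-3zeta, an adaptor protein, at 13.96 ± 0.52. Of 29 genes of the V-ATPase, the proton pump, 15 did, led by Vha26 at 13.53 ± 0.23, and of 39 proteasome genes 13 did, led by Prosbeta4 at 10.37 ± 0.11.

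The complexes of the respiratory chain differed in how high their subunits stood. Among subunits above the controls on all 3 arrays, the median level was 10.90 for 25 of 31 genes of complex I, the NADH dehydrogenase. For 3 of 6 genes of complex II it was 10.13, and for 6 of 8 genes of complex III it was 11.94. For 8 of 13 genes of complex IV it was 13.57, and for 14 of 16 genes of the ATP synthase it was 12.70. The lowest of the 8 genes of complex IV stood at 12.83, above the median of complexes I, II and III and of the ATP synthase. These medians leave out the dim genes, which include 10 of the paralogs described next.

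Where a ranked subunit could be paired by name with a ranked paralog, such as COX4L beside COX4, the subunit was the brighter. Pairs were formed by a few patterns of names, so other copies are not covered. This pattern was noticed in the values and then counted, so it is a description. Over 37 pairs from the respiratory chain, ribosome, proteasome and proton pump, the named subunit was above its paralog on all 3 arrays in 37, and the paralog was above the controls on no array in 31. For those 31 the size of the gap is not measured, since the paralog gave only background. Over all 10844 genes ranked, 5273 were above the controls on no array. Of the pairs, 11 were of oxidative phosphorylation, 11 of the proton pump, 13 of the proteasome and 2 of the ribosome. Some subunits stand in several pairs, such as Vha16-1 beside Vha16-2, Vha16-4 and Vha16-5, so the pairs are not separate observations. For the proton pump and RpL37 the gene numbered 1 was taken as the subunit and the others as its paralogs. Many of these paralogs are known from the testis in flies.

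COX4 stood at 15.62 while COX4L was above the controls on no array. The proton pump subunit gene Vha16-1 stood at 12.72 while its relatives Vha16-2 and Vha16-4 were above them on none. A second probe set of Vha16-1 read 6.95. In 3 pairs the paralog was above the controls on all 3 arrays. ATPsynbeta and ATPsynbetaL, at 7.37 and 6.42, differed by 0.945, the pump genes Vha100-1 and Vha100-2 by 1.61, and RpLP0 and RpLP0-like, at 15.02 and 7.20, by 7.82. Pairs with similar sequence may share probes, and that was not tested.

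Detoxification families were mixed. GstD1, a glutathione transferase, stood at 14.46 ± 0.10. Of 34 genes of its family 9 were above percentile 90 and 10 were above the controls on no array. Over all 10844 genes ranked, 5273 were above the controls on no array. Of 80 cytochrome P450 genes 36 were above the controls on all 3 arrays, or 45.0%, close to the 42.5% of all genes. Their median lay at percentile 51.6, near the middle of all genes. The brightest was Cyp6d5 at 12.63 ± 0.15, and 14 were above percentile 90, or 17.5%. Of 33 UDP-glycosyltransferase genes 1, Ugt37D1 at 8.84 ± 0.40, was above percentile 90. The ferritin genes Fer1HCH and Fer2LCH, which store iron, stood at 13.79 ± 0.07 and 12.31 ± 0.14. Of 21 chaperone genes 5 were above percentile 90, led by Hsc70-4 at 13.18 ± 0.58, Hsp60A at 10.36 ± 0.12 and l(2)efl, a small heat shock protein gene, at 9.76 ± 0.30, and 4 were above the controls on no array.

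The clock genes were spread over the upper and lower parts of the order at ZT16. The repressor gene tim was the brightest, at rank 286, with 11.08, 11.87 and 11.14 and a mean of 11.36 ± 0.44. Both other probe sets of tim were dimmer, at 7.13 and 5.44, so its place depends on the probe set taken. The gene vri, a repressor of Clk, read 9.56, 10.25 and 9.68, and Pdp1, an activator of Clk, stood at 8.69 ± 0.40. The repressor gene cwo stood at 7.95 ± 0.35, with a second probe set at 4.86, the light receptor gene cry at 7.78 ± 0.27 and cyc at 7.19 ± 0.16. Their ranges on the arrays placed tim above vri and vri above Pdp1 without overlap, while those of cwo and cry overlapped.

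The repressor gene per, partner of tim, read 5.55, 5.24 and 5.19, and Clk read 5.21, 5.25 and 5.32. Both were above the controls on no array, so the arrays gave no order between them and no level. Each is measured by its brightest probe set, and what that probe set can detect was not tested. Of the enzymes that act on clock proteins, the phosphatase gene Pp1-87B stood at 9.42 ± 0.62, the ubiquitin ligase scaffold gene Cul1 at 8.48 ± 0.14 and dco, the casein kinase of PER, at 7.77 ± 0.23. The F-box gene slmb was above the controls on 2 arrays and jet on none.

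**Figure D4:**
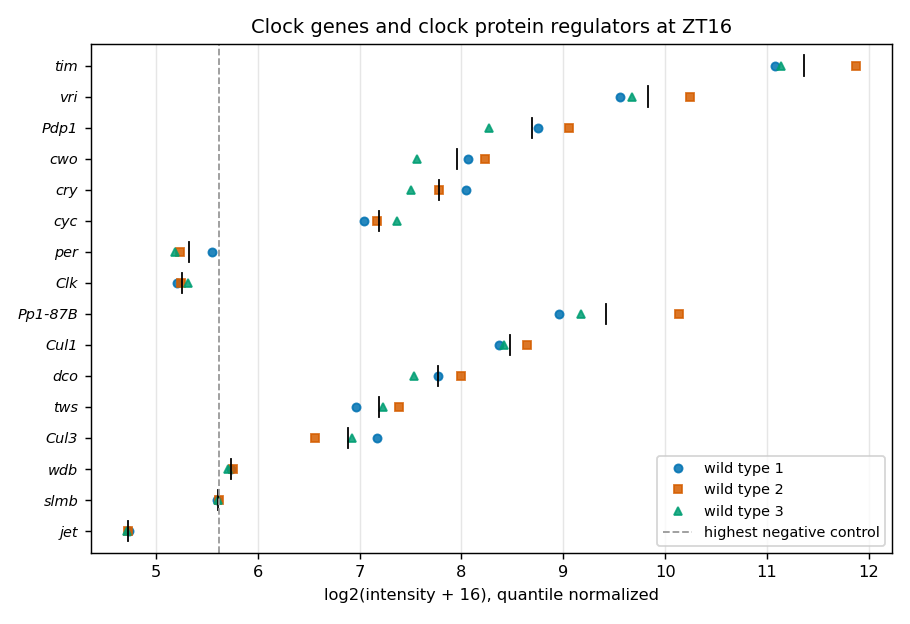
Core clock genes and, below them, regulators of clock proteins, with log2(intensity + 16) after quantile normalization on the horizontal axis. Symbols are the 3 arrays, the vertical bar is their mean and the dashed line is the highest negative control. The gene tim at 11.36 stands apart from vri at 9.83, and per, Clk and jet lie left of the line on every array.

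Of 22 genes listed here as clock outputs of the head, 13 were above the controls on all 3 arrays and 7 were above percentile 90. The list includes Pdf, na and nocte, and not every member is an established cycling transcript. The light-activated channel gene trpl was the brightest, followed by the kinase gene Lk6 at 13.14 ± 0.08, although a second probe set of Lk6 read 9.38. Next was Jhbp13, a gene of the juvenile hormone binding protein family, at 12.43 ± 0.24. The channel-binding protein gene Slob stood at 9.89 ± 0.15. Cyp18a1, which breaks down ecdysone, read 7.16, 8.17 and 5.53, and CG3348 read 7.21, 7.13 and 5.39. Both were below the controls on wild type 3 and above them on the other arrays. One time point shows levels and no rhythm.

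Most genes above the controls varied little between arrays, with a median SD of 0.198, and 66 of 4611, or 1.43%, had an SD over 1. Of 5571 genes above the controls on at least 1 array, those lower by over 2 log2 units on 1 array than on both others numbered 0 for wild type 1, 6 for wild type 2 and 20 for wild type 3. Those higher by as much numbered 5, 2 and 3.

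The list of digestive tract genes holds 14 of the 5571 genes above the controls on at least 1 array. Of the 20 genes low on wild type 3, 6 belong to this list. These are the starch-cleaving amylase gene Amy-d, which read 12.01, 12.62 and 6.78, and the trypsin genes alphaTry, with 9.14, 8.22 and 4.89, and betaTry, with 9.05, 9.01 and 5.50, and the protease genes Jon74E, Jon99Fii and Jon65Aiv. Outside the list, the mucin gene Muc68D read 11.09, 12.11 and 5.64, and 10 of the 20 were known by number only. The widest gap was that of the numbered gene CG34324, with 13.32, 16.01 and 4.74. It ranked among the brighter genes on wild type 2 and under the controls on wild type 3.

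**Figure D5:**
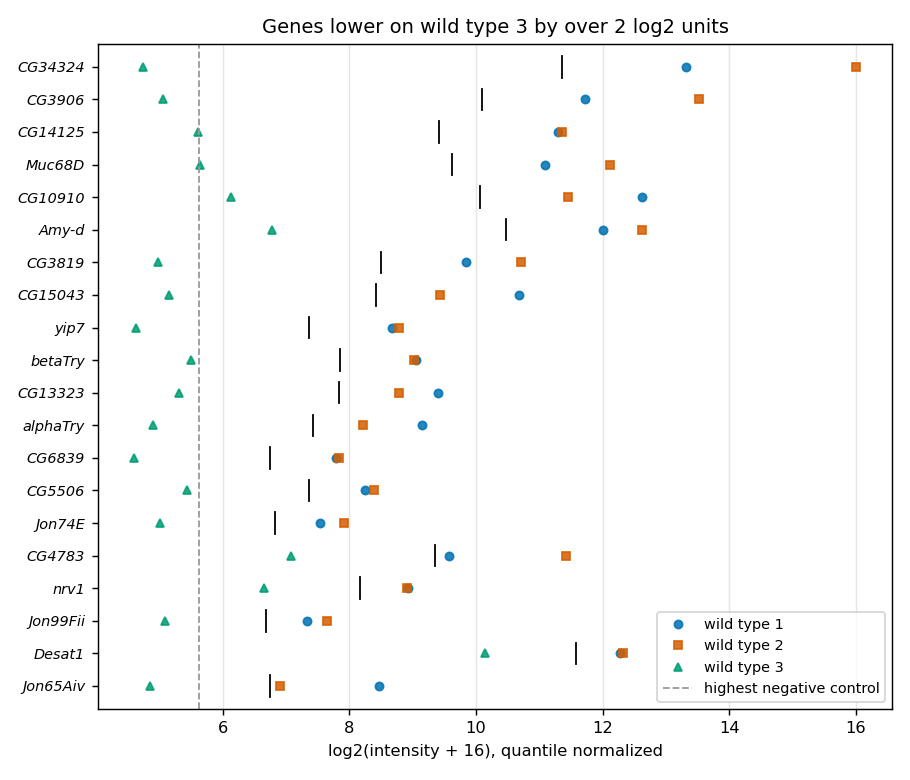
The 20 genes lower on wild type 3 by over 2 log2 units than on both other arrays, with log2(intensity + 16) after quantile normalization on the horizontal axis. Symbols are arrays, the vertical bar is the mean and the dashed line is the highest negative control. Wild type 3 lies at or left of the control line for most of them, and wild type 1 and 2 lie right of it for all.

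Over the whole list of 41 digestive tract genes, 14 were above the controls on wild type 1, 13 on wild type 2 and 7 on wild type 3, and 27 on none. Over all 10844 genes ranked these numbers were 5157, 4942 and 5084, and 5273 on none. On wild type 1 and wild type 2 but not on wild type 3 there were 6 digestive genes. Wild type 3 was lowest for 11 of the 14 digestive genes above the controls on any array. Of all genes above them on any array it was lowest for 32.3%. Of the 7 genes above the controls on all 3 arrays, LysD, Amy-d, LysE and Jon65Aiii were lowest on wild type 3, and LysB, LysC and LysP on wild type 2. Digestive genes above percentile 90 numbered 7 over all arrays and 3 to 9 when 1 array was left out, with the 3 found without wild type 1. Wild type 3 was also the array with the highest 18S signal, and the part of either gut tissue or RNA quality in these differences was not tested.

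Lysozyme genes formed a different pattern within the same list. LysD read 12.47, 10.38 and 10.05, LysP 9.71, 7.52 and 7.59, and LysC 9.97, 7.27 and 7.67, each highest on wild type 1 by over 2 log2 units. LysB, LysC, LysD and LysE are near-identical copies and their probe sets carry a suffix that marks shared probes, so their single values are uncertain. The probe set of LysP carries no such suffix. The storage protein gene Lsp2, described with the fat body, also had its excess on wild type 1.

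Wild type 2, the array with the low 5' controls for eIF-4a and GAPDH, was low by over 2 log2 units for the translation factor gene eEF1alpha2, with 10.82, 8.37 and 10.80, for Pis, the phosphatidylinositol synthase of the photoreceptor list, with 10.36, 8.11 and 10.26, and for GstE9, with 11.66, 9.42 and 11.49. The other such genes were CG32444, path and CG14767. On the same array whe read 16.05, against 13.02 and 11.79. Whether these differences go with the 5' signal was not tested. On wild type 3 the chaperone gene Hsc70-3 stood at 8.22, against 5.70 and 5.83. There rut, the adenylate cyclase of learning, read 16.69 against 14.44 and 13.38, but on a probe set with shared probes, and its other probe set stood at 5.39.

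The probe set taken can matter as much as the array. Of the genes above percentile 90, 132 had several probe sets, whose brightest and dimmest differed by a median of 3.50 log2 units, and 46 of them differed by over 4. Probe sets without a listed gene were left out although many were bright. Of the 100 brightest probe sets of the arrays, 56 had exactly 1 gene, 2 had several and 42 had none listed. The unnamed probe sets were not analysed here, so the order leaves out a large part of the brightest signals.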

How the data were processed

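Per the labels and file headers, total RNA of heads was hybridised to Affymetrix DrosGenome1 arrays. The authors deposited 1 intensity per probe set; how they were summarised, background corrected and normalized is not stated in these sources. Between 51 and 72 probe sets per wild type array exceed 65535, the limit of a 16-bit scan, so the scale is unsettled and could be that of another log base; ranks do not depend on it, whereas log2 distances would.

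Of 14010 probe sets, 44 controls were left out. The platform annotation gave 1 gene for 12443, several for 327 and none for 1196; 12394 matched a current gene table (RefSeq, used for names alone). Values were taken as log2(intensity + 16), quantile normalized over the 3 wild type arrays, and a gene was placed by its brightest probe set. Each of 39 gene lists is described by counts and medians beside all genes; 160 listed names have no ranked gene. Members and lists were chosen with earlier results of these data known. Named genes are the markers, the 30 brightest, the 3 brightest members of each list and, for lists of head tissues, clock and function, the dimmest member above the controls, the core clock, and the 10 largest SDs among genes above the controls on all 3 arrays; other names were chosen after their values were seen. Ranking was checked on simulated data. The number of arrays limits the precision. Alternatives were pseudocounts of 1 and 64, no normalization, median centring and normalization over 6 arrays. Others were the mean over probe sets, a filter at the controls and omission of each array. The natural log was added after seeing the data. So was omission of probe sets ending in _f_at, _s_at, _i_at or _r_at, called suffixed probe sets below. Python 3.11.15, pandas 2.3.3, numpy 2.4.6 and matplotlib 3.10.9 were used.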

Additional observations from a re-analysis of the deposited data

How the results depend on the processing

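The 100 brightest genes were the same 100 under both pseudocounts, without normalization, with median centring, with normalization over 6 arrays, with natural log values and with the filter at the controls. Of them 94 remained with the mean over probe sets, 96 without suffixed probe sets, and 97 to 98 without 1 array. Genes above the controls on all arrays numbered 4396 with the mean over probe sets, 4529 without suffixed probe sets and 4691 to 4771 without 1 array, against 4611. With the mean over probe sets 1 transcription factor of eye and brain rose above percentile 90. Ranking only genes above the controls leaves fewer genes above percentile 90 by construction. They then included 9 photoreceptor genes, 2 of pigment cells and lens, 1 neuron, 4 neuropeptide, 5 muscle, 1 cuticle, 3 digestive tract, 1 core clock and 3 rhythmic output genes. Of functions they included 5 glycolysis genes, 2 of the proteasome, 2 chaperones, 7 of the V-ATPase, 3 glutathione transferases, 4 antioxidant enzymes and 5 P450 genes. They included 0 genes of hemocytes, early embryo patterning, clock kinases, the mitochondrial ribosome and UDP-glycosyltransferases. UDP-glycosyltransferases above percentile 90 numbered 2, against 1, with a pseudocount of 1, as deposited, with median centring and with the mean over probe sets. They also numbered 2 with natural log values and without suffixed probe sets, and 1 to 2 without 1 array. Digestive tract genes above percentile 90 numbered 3, against 7, without suffixed probe sets and 3 to 9 without 1 array. Of the named genes, rut fell to 5.39, mam to 5.27 and Tret1-1 to 6.38 without suffixed probe sets, and tim to 7.98 with the mean over its probe sets. Without wild type 1, 2 or 3 the neuron genes above percentile 90 numbered 7 to 10. No paired analysis was possible because 1 group was described and the results come from no test. The shares of promoter motifs and the protein lengths planned as further descriptions were not run, since the sequences they need were not used here. Levels near the controls, such as those of per and Clk, are limited by signal over background.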
